A study of Homo sapiens with 24 samples.

Results

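U937 cells grown with folic acid and treated with OTX were compared with U937 cells grown with folic acid and given the solvent DMSO. The groups U937+FA_OTX and U937+FA_DMSO had 3 libraries each, which makes 6 of the 24 libraries of a study on how a lack of folic acid changes the transcriptional effect of OTX. The other libraries came from U937 cells without folic acid and from the acute myeloid leukaemia (AML) line IMS-M2 with and without it, again with OTX or DMSO. The labels give OTX as an abbreviation, with no dose and no duration, and knowledge of the study identifies it as birabresib, which inhibits BET bromodomain proteins. U937 is a monocytic line known to carry the PICALM-MLLT10 fusion and to lack functional p53, and both groups are cultures of this 1 line with folic acid in the medium. The labels do not state whether a group's 3 libraries came from separate cultures, so each p-value measures only the spread between these libraries.

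Polyadenylated RNA was measured as FPKM, the fragments of a gene per kilobase of its transcript, scaled to the library's total. Of 23595 genes in the table, 11017 had a mean of at least 1 FPKM in 1 of the 2 groups and were tested, and 6948 were listed at 0 in all 6 libraries. KIAA1211L, LNP1 and ESAM lay just outside this limit, with 0.997, 0.998 and 0.999 FPKM in their higher group. CORO2B, SPAG4 and HDHD3 lay just inside it, with 1.00002, 1.00121 and 1.00143 FPKM. Calls were made with limma at an adjusted p below 0.05 (Benjamini-Hochberg), on log2(FPKM + 1), and each log2 change below is OTX minus DMSO on that scale, so changes of low genes come out too small.

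BET proteins bind acetylated histones through their bromodomains and bring the kinase P-TEFb, made of CDK9 and a cyclin T, to promoters and enhancers. P-TEFb then releases paused RNA polymerase II into the body of the gene. BET inhibitors displace these proteins from chromatin, and genes that lean on large enhancers, among them MYC in blood cancers, are known to be sensitive to them. MYC in turn drives ribosome production, nucleotide synthesis and entry into the cell cycle.

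The 6 libraries were alike in size and separated by treatment. FPKM sums were 585692 to 600212 under OTX and 564506 to 620930 in DMSO, and 10644 to 10660 genes under OTX and 10679 to 10713 genes in DMSO reached 1 FPKM. The number of reads is unknown, so no counting interval was computed. Pearson correlations of log2 values across genes, which are not independent replicates, were 0.981 to 0.988 within groups and 0.932 to 0.949 between them. The first principal component held 69.1% of the variance and separated OTX from DMSO. The next held 13.4% and set OTX replicate 3 and DMSO replicate 1 apart from the other 4 libraries. Of 10 monocytic markers, 9 reached 1 FPKM and CSF2RA was listed at 0, and their summed level was 996 to 1075 FPKM under OTX and 1120.4 to 1316 FPKM in DMSO. The most abundant of them went apart. LYZ had 260 FPKM under OTX, against 548 FPKM in DMSO, and ITGB2 had 493 FPKM under OTX, against 298 FPKM in DMSO. The 5 lymphoid markers summed to 1.11 to 1.22 FPKM under OTX and 2.51 to 2.75 FPKM in DMSO, with CD3D and MS4A1 listed at 0. The 5 erythroid and megakaryocyte markers summed to 0.0872 to 0.152 FPKM under OTX and 0.0614 to 0.579 FPKM in DMSO, with PF4 listed at 0. The 5 stromal, epithelial and endothelial markers summed to 0.0181 to 0.0747 FPKM under OTX and 0.0102 to 0.0277 FPKM in DMSO, with COL1A2, EPCAM and KRT19 listed at 0.

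In limma, the level of 6204 of 11017 tested genes (56.3%) differed between OTX and DMSO, with 3199 above DMSO (29.0%) and 3005 below it (27.3%). Of these, 899 (8.16% of the tested genes) moved by 1 or more on the log2 scale, 334 upwards (3.03%) and 565 downwards (5.13%). The 3 OTX libraries all lay above the 3 DMSO libraries in 3543 genes (32.2%) and all below them in 3348 (30.4%). The median log2 change of all tested genes was 0.026. These shares are the background against which the gene lists below are read, and no list was tested as a set. A list near 29.0% higher and 27.3% lower is like the tested genes as a whole. Members of longer lists are named for their small p, so a lack of overlap in them partly reflects that choice.

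Among the BET proteins and regulators of P-TEFb, HEXIM1, BRD2 and CDK9 rose. HEXIM1, which holds P-TEFb inactive and is a common readout of BET inhibition, had 30.8, 23.9 and 21.1 FPKM in the OTX libraries, against 8.84, 11.3 and 9.96 FPKM in the DMSO libraries. The OTX libraries all lay above the DMSO libraries, OTX replicate 1 highest, and HEXIM1 rose by 1.24 ± 0.15 (SE, log2; adjusted p = 0.000189). BRD2, itself a BET protein, had 72.4, 65.6 and 74.2 FPKM in the OTX libraries, against 50.5, 44.7 and 46.0 FPKM in the DMSO libraries, without overlap, and rose by 0.58 ± 0.094 (log2; adjusted p = 0.00107). CDK9, the kinase of P-TEFb, rose by 0.61 on the log2 scale, at 41.4 FPKM under OTX, against 26.9 FPKM in DMSO. Of the 10 tested genes of this list, 3 were higher (30%), near the 29.0% of all tested genes, and 1 lower (10%), against 27.3%. The list's median log2 change was 0.11. SERPINI1, a serine protease inhibitor that serves as a BET inhibition marker, had 3.21, 2.69 and 2.51 FPKM in the OTX libraries, against 0.675, 0.655 and 0.759 FPKM in the DMSO libraries, without overlap, and rose by 1.16 ± 0.094 (log2; adjusted p = 3.36e-05). HEXIM1 lies at chromosome 17, 43224683 to 43229468, on hg19 as the table gives the locus.

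The super elongation complex carries P-TEFb to genes. In its list 4 of 11 tested genes rose, against 29.0% of all tested genes, and 1 fell, against 27.3%. The list also holds DOT1L and MLLT10, which are not subunits of this complex. The scaffold AFF1 rose by 0.88 on the log2 scale, at 22.5 FPKM under OTX, against 11.8 FPKM in DMSO, the scaffold AFF4 by 0.55 and the chromatin reader MLLT3 by 0.84. The elongation factor ELL3 fell by 0.53 on the log2 scale, at 0.660 FPKM under OTX, against 1.40 FPKM in DMSO. The list's median of 0.10 changed sign without OTX replicate 3 (-0.0077) and with a filter at 5 FPKM (-0.15).

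MYC, the transcription factor of cell growth, had 22.6, 25.2 and 24.1 FPKM in the OTX libraries, against 192, 207 and 188 FPKM in the DMSO libraries. All 3 OTX libraries lay far below the DMSO libraries, and the spread within each group was small beside the gap. MYC fell by 2.98 ± 0.089 (SE, log2; adjusted p = 1.35e-06). The genes that share its partner MAX went apart. The MYC antagonists of the MXD family rose, MXD1 by 0.83 on the log2 scale, to 6.75 FPKM under OTX, against 3.35 FPKM in DMSO, MXD4 by 0.76, to 10.3 FPKM under OTX, against 5.63 FPKM in DMSO, and MXD3 by 0.61, to 43.5 FPKM under OTX, against 28.2 FPKM in DMSO. MXI1, of the same family, fell by 0.83 on the log2 scale, at 6.49 FPKM under OTX, against 12.4 FPKM in DMSO. Of the 11 tested genes of the MYC and MAX network, 3 were higher and 3 lower (median 0.16).

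The 12 genes with the highest and the 12 with the lowest log2 changes were taken among called genes with at least 5 FPKM in a group and no overlap between OTX and DMSO libraries. CDKN1A, the cyclin-dependent kinase inhibitor p21, had 45.7, 36.2 and 35.7 FPKM in the OTX libraries, against 2.73, 3.14 and 3.07 FPKM in the DMSO libraries, and rose by 3.33 ± 0.11 (log2; adjusted p = 1.35e-06). CD82, a tetraspanin that organises membrane receptors, had 147, 111 and 114 FPKM in the OTX libraries, against 15.9, 15.4 and 17.0 FPKM in the DMSO libraries. IRF7, a regulator of type I interferon, had 20.3, 15.6 and 15.6 FPKM in the OTX libraries, against 1.54, 1.82 and 2.16 FPKM in the DMSO libraries. In each of these genes OTX replicate 1 was the highest library, and the DMSO libraries lay close together. ID2, which blocks the DNA binding of differentiation factors, had 144, 133 and 131 FPKM in the OTX libraries, against 23.6, 23.1 and 22.5 FPKM in the DMSO libraries. LGALS1, the lectin galectin-1, was among the most abundant transcripts and had 5038, 4243 and 5103 FPKM in the OTX libraries, against 1399, 919 and 1041 FPKM in the DMSO libraries. ECM1, an extracellular matrix protein, had 57.3, 49.4 and 53.9 FPKM in the OTX libraries, against 11.4, 10.3 and 12.3 FPKM in the DMSO libraries. All of these rose, ID2 by 2.51 on the log2 scale, LGALS1 by 2.12 and ECM1 by 2.15. TXNIP, which binds thioredoxin and curbs glucose uptake, rose by 2.101 on the log2 scale, to 121 FPKM under OTX, against 27.5 FPKM in DMSO. NEAT1, the noncoding RNA that builds paraspeckles, rose by 2.15 on the log2 scale, to 217 FPKM under OTX, against 48.0 FPKM in DMSO. The lipid transporter ABCA7 rose by 2.25 on the log2 scale, the activation marker CD69 by 2.24 and the small membrane protein SMIM3 by 2.11. The readthrough transcript HOXA10-HOXA9 had 2.04, 10.9 and 17.3 FPKM in the OTX libraries, against 0, 1.71 and 0.796 FPKM in the DMSO libraries. DMSO replicate 1 was listed at 0, the OTX libraries scattered, and the gene shares its locus with HOXA9, HOXA10 and MIR196B, so how its reads were divided among them is uncertain.

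MS4A3 had the largest fall among these. This gene, known from granulocyte-monocyte progenitors, had 4.22, 5.85 and 5.93 FPKM in the OTX libraries, against 72.3, 69.1 and 64.2 FPKM in the DMSO libraries, and fell by 3.47 ± 0.12 (log2; adjusted p = 1.93e-06). PLAC8, a small protein of immune cells, had 1.01, 1.27 and 0.549 FPKM in the OTX libraries, against 18.1, 21.7 and 20.9 FPKM in the DMSO libraries. CYBB, the catalytic subunit of the phagocyte oxidase, had 1.45, 1.48 and 1.63 FPKM in the OTX libraries, against 22.2, 20.3 and 17.5 FPKM in the DMSO libraries. CYBB fell by 3.06 on the log2 scale and PLAC8 by 3.46. FCER2, the low-affinity IgE receptor, had 4.64, 4.54 and 4.23 FPKM in the OTX libraries, against 43.0, 43.0 and 45.5 FPKM in the DMSO libraries. PRTN3, the granule proteinase 3, had 99.0, 86.2 and 67.7 FPKM in the OTX libraries, against 527, 537 and 534 FPKM in the DMSO libraries. RGS18, a brake on G-protein signals in blood cells, had 2.15, 2.77 and 2.48 FPKM in the OTX libraries, against 18.4, 19.5 and 17.5 FPKM in the DMSO libraries. FCER2 fell by 3.04 on the log2 scale, PRTN3 by 2.66 and RGS18 by 2.49, and the lack of overlap in these genes was set by the choice. The actin-like gene ACTL8 fell by 3.34 on the log2 scale, to 0.373 FPKM under OTX, against 12.9 FPKM in DMSO. ACSL5, which activates fatty acids, fell by 2.72 on the log2 scale, to 2.96 FPKM under OTX, against 24.99 FPKM in DMSO, and the thromboxane receptor TBXA2R by 2.56, to 2.78 FPKM under OTX, against 21.2 FPKM in DMSO. TARP, a transcript of the T cell receptor gamma locus, fell by 2.93 on the log2 scale, and CCDC86, a nucleolar protein whose locus in the table includes PTGDR2, by 2.60. On hg19, as the table gives each locus, CDKN1A lies at chromosome 6, 36644236 to 36655116, CD82 at chromosome 11, 44587140 to 44641315, MS4A3 at chromosome 11, 59824100 to 59838588 and CYBB at chromosome X, 37639269 to 37672714.

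**Figure D1:**
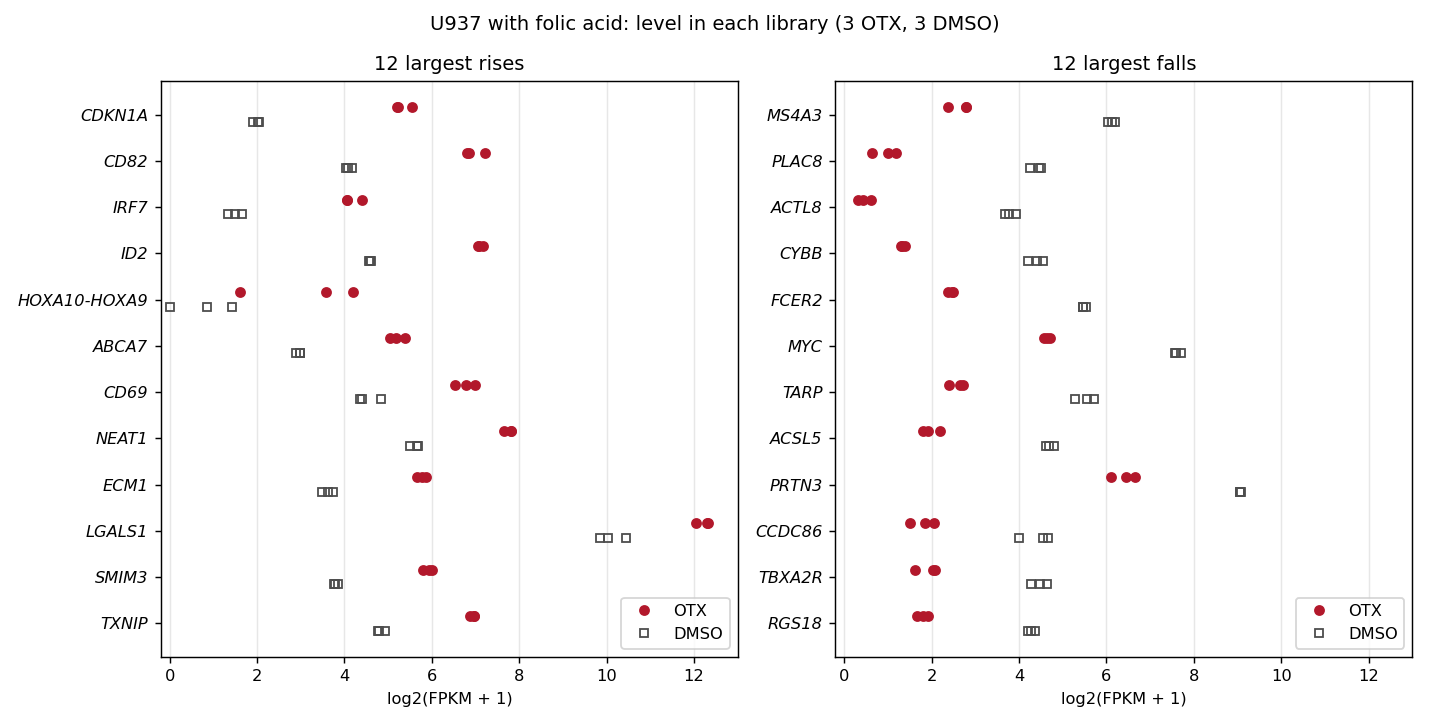
Level in each library, as log2(FPKM + 1), of the 12 genes with the largest rises (left) and the 12 with the largest falls (right) in U937 with folic acid; filled circles are the 3 OTX libraries and open squares the 3 DMSO libraries. Genes were chosen among those whose groups do not overlap. CDKN1A and CD82 head the rises, and HOXA10-HOXA9 has OTX libraries from 2.04 to 17.3 FPKM.

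Genes of ribosome biogenesis fell throughout the list. All 55 tested genes of ribosome biogenesis were lower under OTX and 0 were higher, against 27.3% lower among all tested genes, with a median log2 change of -0.996 and a range from -1.76 to -0.26. RRS1, an assembly factor of the large subunit, had 15.5, 14.4 and 14.5 FPKM in the OTX libraries, against 52.97, 51.2 and 51.9 FPKM in the DMSO libraries, a log2 change of -1.75. MRTO4, which helps to place the ribosomal stalk, had 22.1, 18.6 and 19.3 FPKM in the OTX libraries, against 66.9, 65.9 and 69.0 FPKM in the DMSO libraries, a log2 change of -1.70. MYBBP1A, a nucleolar regulator, fell by 1.69 on the log2 scale, to 9.52 FPKM under OTX, against 33.0 FPKM in DMSO, and WDR74, a factor of large subunit maturation, by 1.71, to 12.7 FPKM under OTX, against 43.9 FPKM in DMSO. In each of these genes the OTX libraries lay below every DMSO library.

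MYC and related factors are known to bind the E-box CACGTG. The letters CACGTG, which read the same on both strands, were searched in the 250 bases before the start of each gene in RefSeq (GRCh38.p14). Of 11017 tested genes, 8925 had a promoter there. The E-box stood in 6 of 48 promoters (12.5%) of ribosome biogenesis, beside 9.4% of the tested genes' promoters and 6.49% of all 27305 promoters in the table. Among genes lower by a log2 of at least 1 it stood in 58 of 439 promoters (13.2%), among those higher by as much in 23 of 269 promoters (8.55%), and among genes not called in 376 of 3856 promoters (9.75%). Lysosome and autophagy genes, which mostly rose, held it in 9 of 37 promoters (24.3%). The promoters of EBNA1BP2 and UTP20, assembly factors that fell, and of NEU1 and MCOLN1, lysosomal genes that rose, are shown because the same 6 letters stand before genes that moved in opposite directions. EBNA1BP2 (chr1:43172571-43172820 on the minus strand) fell by 1.59 on the log2 scale, UTP20 (chr12:101279855-101280104 on the plus strand) by 1.21, NEU1 (chr6:31862822-31863071 on the minus strand) rose by 1.08 and MCOLN1 (chr19:7522374-7522623 on the plus strand) by 1.04. Capitals mark the E-box, and each sequence is written 5′ to 3′ on the strand of the gene.
EBNA1BP2: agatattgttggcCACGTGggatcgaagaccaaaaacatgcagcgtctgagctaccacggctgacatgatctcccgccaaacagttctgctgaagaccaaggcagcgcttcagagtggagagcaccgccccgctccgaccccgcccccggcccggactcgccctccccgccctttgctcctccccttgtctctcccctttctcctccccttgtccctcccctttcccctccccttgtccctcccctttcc
UTP20: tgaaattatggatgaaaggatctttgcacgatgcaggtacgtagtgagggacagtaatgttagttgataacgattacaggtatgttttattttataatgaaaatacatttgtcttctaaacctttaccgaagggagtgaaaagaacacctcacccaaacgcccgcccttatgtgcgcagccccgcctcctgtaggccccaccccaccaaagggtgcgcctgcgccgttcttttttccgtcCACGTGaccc
NEU1: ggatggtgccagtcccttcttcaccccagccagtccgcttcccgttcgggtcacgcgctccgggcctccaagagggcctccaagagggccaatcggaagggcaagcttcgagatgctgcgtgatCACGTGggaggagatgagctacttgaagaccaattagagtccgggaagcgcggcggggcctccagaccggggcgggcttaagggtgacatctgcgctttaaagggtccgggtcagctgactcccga
MCOLN1: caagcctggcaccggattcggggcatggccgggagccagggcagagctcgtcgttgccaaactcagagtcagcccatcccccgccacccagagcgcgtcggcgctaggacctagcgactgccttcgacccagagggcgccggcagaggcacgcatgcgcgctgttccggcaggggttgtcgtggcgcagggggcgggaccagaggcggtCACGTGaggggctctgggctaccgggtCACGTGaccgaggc
The E-box began at base -237 from the start of EBNA1BP2, -10 of UTP20 and -126 of NEU1, and MCOLN1 held 2, at -41 and -14. These 4 genes were chosen after their values were seen, among called members of their lists that hold the motif and had large changes. ATP6V0D1, a member of the lysosome list that holds the motif and rose by 1.15 on the log2 scale, is not shown. A match is a description of letters and does not show that a factor binds there.

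Most genes of other steps of protein synthesis fell as well. Of 43 mitochondrial ribosomal protein genes, 37 were lower and 0 higher (median -0.80). MRPL3 fell by 1.40 on the log2 scale, to 42.5 FPKM under OTX, against 114 FPKM in DMSO, MRPL15 by 1.25 and MRPL4 by 1.36. Among 22 genes of aminoacyl-tRNA synthetases, which charge tRNAs, 18 fell and 0 rose (median -0.70). VARS, for valine, had 37.3, 32.8 and 32.5 FPKM in the OTX libraries, against 94.0, 92.3 and 102 FPKM in the DMSO libraries, a log2 change of -1.46 with no overlap. YARS, for tyrosine, fell by 1.17 on the log2 scale, and EPRS, for glutamate and proline, by 1.05. Translation factors fell more often than they rose. Of 37 tested genes, 19 were lower, against 27.3% of all tested genes, and 3 higher, against 29.0% (median -0.31). EIF4EBP1, which blocks the cap-binding factor, fell by 1.26 on the log2 scale, to 121 FPKM under OTX, against 292 FPKM in DMSO, whereas its relative EIF4EBP2 rose by 0.66, to 56.9 FPKM under OTX, against 35.7 FPKM in DMSO. The initiation factor subunit EIF3B fell by 0.86 on the log2 scale. Of 18 host genes of small nucleolar RNAs and related noncoding RNAs, 13 fell and 2 rose (median -0.57). SNHG4 fell by 1.66 and SNHG3 by 1.33, and the 2 that rose, NEAT1 and MALAT1 (log2 1.23), are long nuclear RNAs.

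Enzymes that build purines and pyrimidines mostly fell, while ribonucleotide reductase and thymidine salvage rose. In this list 15 of 29 tested genes were lower and 5 higher (median -0.40). PFAS, an enzyme of the de novo purine pathway, had 6.32, 5.38 and 5.48 FPKM in the OTX libraries, against 21.3, 23.1 and 23.4 FPKM in the DMSO libraries, a log2 change of -1.81. GART, which uses formyl-folate in the same pathway, fell by 1.26 on the log2 scale, to 35.4 FPKM under OTX, against 86.3 FPKM in DMSO, and DHODH, the mitochondrial enzyme of pyrimidine synthesis, by 1.41, to 2.94 FPKM under OTX, against 9.51 FPKM in DMSO. The kinase NME1 fell by 1.60 on the log2 scale. RRM2, the subunit that limits ribonucleotide reductase, had 539, 549 and 583 FPKM in the OTX libraries, against 175, 155 and 139 FPKM in the DMSO libraries, a log2 change of 1.83. TK1, which salvages thymidine, rose by 1.21 on the log2 scale, to 114 FPKM under OTX, against 48.3 FPKM in DMSO, and RRM2B, the p53-regulated form of RRM2, by 0.72. RRM2, TK1 and PFAS, named for their small p, each separated OTX from DMSO in every library.

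Folate enzymes, which carry single carbons to purines, thymidylate and methionine, moved both ways. Of 19 tested genes, 4 were higher and 8 lower (median -0.093). MTHFD1L, which releases formate from mitochondria, had 10.005, 9.52 and 10.7 FPKM in the OTX libraries, against 51.2, 47.5 and 44.5 FPKM in the DMSO libraries, a log2 change of -2.13 ± 0.091 (adjusted p = 2.93e-06). SLC19A1, the reduced folate carrier of the cell membrane, had 23.9, 20.1 and 20.2 FPKM in the OTX libraries, against 50.1, 50.8 and 52.9 FPKM in the DMSO libraries, a log2 change of -1.23. MTHFD1, the cytosolic enzyme of the same interconversions, fell by 0.81 on the log2 scale, to 46.3 FPKM under OTX, against 82.2 FPKM in DMSO, and MTR, methionine synthase, by 0.50, to 5.13 FPKM under OTX, against 7.68 FPKM in DMSO. All 4 of these lay lower in each OTX library. TYMS, thymidylate synthase, rose by 0.78 on the log2 scale, to 188 FPKM under OTX, against 109 FPKM in DMSO, and SHMT1, the cytosolic serine hydroxymethyltransferase, by 0.39, to 28.1 FPKM under OTX, against 21.2 FPKM in DMSO.

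The methionine cycle and polyamine list had 6 of 19 tested genes higher and 6 lower (median 0.23). Spermidine synthase, SRM, fell by 1.11 on the log2 scale, to 144 FPKM under OTX, against 311 FPKM in DMSO, and ornithine decarboxylase, ODC1, by 0.46. SAT1, which breaks polyamines down, rose by 1.13 on the log2 scale, to 76.9 FPKM under OTX, against 34.9 FPKM in DMSO, and spermine oxidase, SMOX, by 0.57. Of the DNA methylation genes 5 of 14 rose and 0 fell (median 0.14). The de novo methyltransferase DNMT3B rose by 0.85 on the log2 scale, to 13.4 FPKM under OTX, against 6.93 FPKM in DMSO, and the isocitrate dehydrogenases IDH1 and IDH2 by 0.80 and 0.53. Among histone methyltransferases and demethylases 9 of 34 were higher and 6 lower. The arginine methyltransferases PRMT1, PRMT5 and CARM1 fell by 1.10, 0.98 and 0.84 on the log2 scale, and the lysine demethylases KDM6A, KDM5A and KDM5B rose by 0.69, 0.62 and 0.58.

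**Figure D2:**
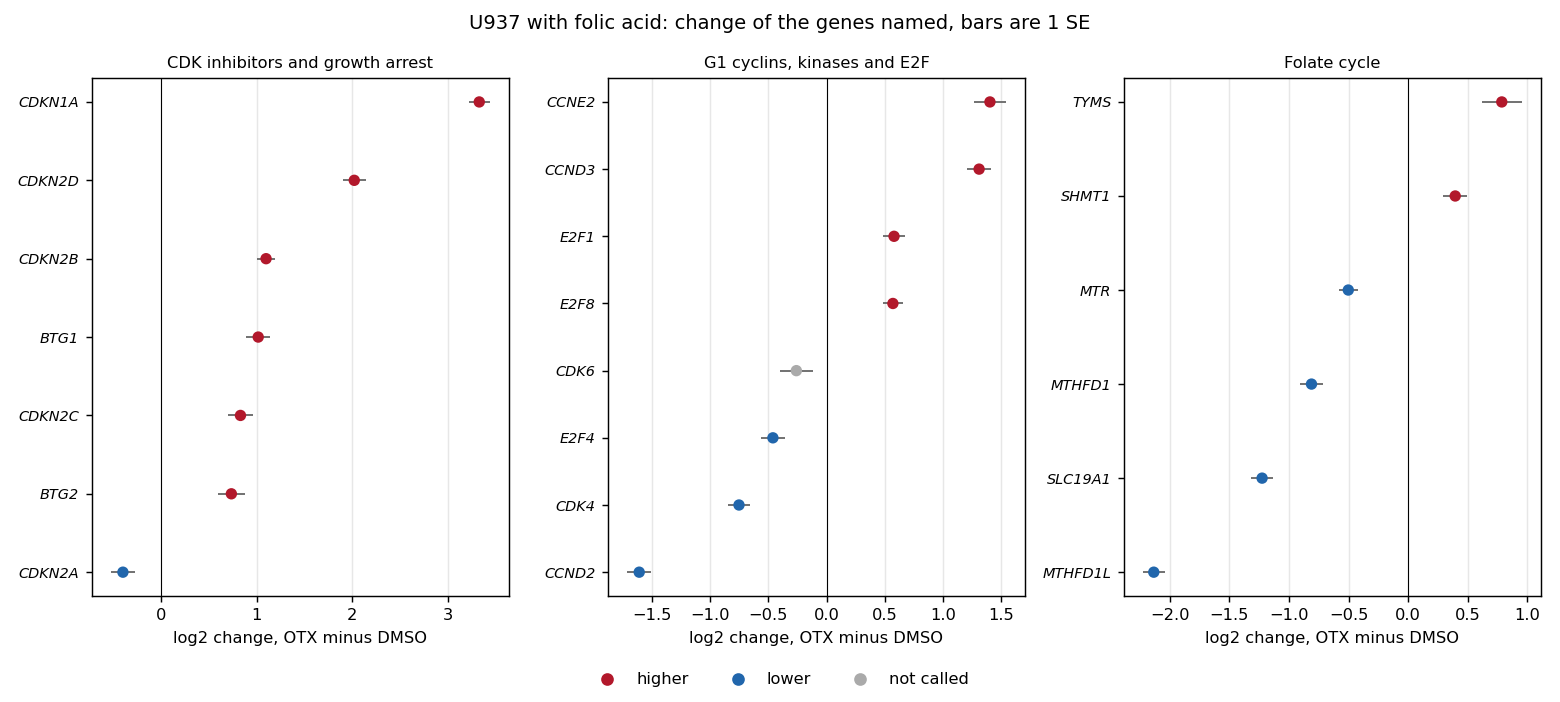
Log2 change, OTX minus DMSO, of the genes named here among CDK inhibitors and growth arrest genes, G1 regulators and folate cycle genes in U937 with folic acid; points are estimates from 3 OTX and 3 DMSO libraries, bars 1 SE, red higher, blue lower and grey not called. CDKN1A stands at 3.33, CCND2 at -1.61 and MTHFD1L at -2.13.

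Amino acid supply genes mostly fell. ATF4, the transcription factor of the amino acid response, had 112, 103 and 99.2 FPKM in the OTX libraries, against 284, 281 and 291 FPKM in the DMSO libraries, a log2 change of -1.44 with no overlap. Of 26 tested genes of serine synthesis and ATF4 targets, 16 were lower and 4 higher (median -0.62). CBS, which directs homocysteine to cysteine, had 5.55, 5.04 and 4.79 FPKM in the OTX libraries, against 18.7, 16.1 and 17.2 FPKM in the DMSO libraries, a log2 change of -1.58. SLC7A5, the carrier of large neutral amino acids, fell by 1.58 on the log2 scale, to 42.1 FPKM under OTX, against 127 FPKM in DMSO, and its partner SLC3A2 by 1.42. The pseudokinase TRIB3 fell by 1.52 on the log2 scale. DDIT4, an inhibitor of the growth kinase mTORC1, rose by 0.95 on the log2 scale, to 25.7 FPKM under OTX, against 12.8 FPKM in DMSO, and the related factors ATF5 and ATF3 by 0.47 and 0.51. Among 19 amino acid transporters 12 fell and 4 rose (median -0.48). The cationic carrier SLC7A1 fell by 1.09 on the log2 scale and the mitochondrial ornithine carrier SLC25A15 by 1.02, and the lysosomal exporter SLC36A1 rose by 0.61.

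ATF4 is known to bind C/EBP-ATF response elements (CARE). Their letters, TGATGNAA with N for any base, were searched on both strands of the same 250 bases. They stood in 3 of 21 promoters (14.3%) of serine synthesis and ATF4 targets and in 2 of 15 promoters (13.3%) of tRNA synthetases, beside 1.28% of the tested genes' promoters and 3.19% of all promoters. The list of ATF4 targets was made up in part of genes known as such, so a high share in it partly follows from that choice. Among genes lower by a log2 of at least 1 they stood in 16 of 439 promoters (3.64%), and among those higher by as much in 2 of 269 promoters (0.743%). The promoters of ASNS, asparagine synthetase, and CHAC1, which degrades glutathione, are shown as members that fell and hold the element. They were chosen after their values were seen, and only members called lower were considered. ASNS (chr7:97872409-97872658 on the minus strand) fell by 0.50 on the log2 scale, to 3.56 FPKM under OTX, against 5.44 FPKM in DMSO, and CHAC1 (chr15:40953221-40953470 on the plus strand) by 0.93, to 1.01 FPKM under OTX, against 2.81 FPKM in DMSO. Capitals mark the element, which CHAC1 carries on the opposite strand.
ASNS: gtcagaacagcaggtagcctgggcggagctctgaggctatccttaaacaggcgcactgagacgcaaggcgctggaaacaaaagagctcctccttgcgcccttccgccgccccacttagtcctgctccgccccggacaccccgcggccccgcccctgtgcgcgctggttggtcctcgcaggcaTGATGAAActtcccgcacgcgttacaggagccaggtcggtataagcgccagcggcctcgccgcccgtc
CHAC1: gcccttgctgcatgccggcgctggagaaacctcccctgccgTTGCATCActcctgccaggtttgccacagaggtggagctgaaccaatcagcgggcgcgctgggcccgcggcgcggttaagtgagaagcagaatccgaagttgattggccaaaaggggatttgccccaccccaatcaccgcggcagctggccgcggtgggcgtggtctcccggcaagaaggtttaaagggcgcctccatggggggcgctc
It began at base -68 from the start of ASNS and -209 of CHAC1.

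Most inhibitors of the cell cycle rose, and so did 23 of 39 genes of mitosis. Of 13 genes of CDK inhibition and growth arrest, 9 were higher, against 29.0% of all tested genes, and 1 lower (median 0.73). Beside CDKN1A, CDKN2D, the inhibitor p19 of CDK4 and CDK6, had 64.6, 50.9 and 58.3 FPKM in the OTX libraries, against 15.01, 11.8 and 13.7 FPKM in the DMSO libraries, a log2 change of 2.02 ± 0.12 (adjusted p = 1.06e-05). CDKN2B, the inhibitor p15, had 2.58, 3.28 and 2.65 FPKM in the OTX libraries, against 0.730, 0.757 and 0.867 FPKM in the DMSO libraries, and CDKN2C, the inhibitor p18, rose by 0.83 on the log2 scale, to 50.1 FPKM under OTX, against 27.4 FPKM in DMSO. The OTX libraries lay above every DMSO library in both. The antiproliferative genes BTG1 and BTG2 rose by 1.02 and 0.74 on the log2 scale. CDKN2A fell by 0.40 on the log2 scale, at 84.5 FPKM under OTX, against 111 FPKM in DMSO, and lost its call without any 1 of DMSO replicate 2 (adjusted p = 0.0948), OTX replicate 2 (0.0631) and OTX replicate 3 (0.0811).

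The cyclins of G1 went apart. CCND3, cyclin D3, had 176, 146 and 166 FPKM in the OTX libraries, against 61.2, 66.6 and 66.9 FPKM in the DMSO libraries, a log2 change of 1.31, whereas CCND2, cyclin D2, had 3.10, 3.52 and 4.10 FPKM in the OTX libraries, against 14.1, 12.3 and 12.4 FPKM in the DMSO libraries, a log2 change of -1.61. CCNE2, a cyclin E of S phase entry, had 18.1, 22.1 and 23.4 FPKM in the OTX libraries, against 8.22, 8.09 and 5.97 FPKM in the DMSO libraries, a log2 change of 1.40. None of these 3 genes overlapped between groups. CDK4, the partner of D cyclins, fell by 0.75 on the log2 scale, to 89.5 FPKM under OTX, against 152 FPKM in DMSO. CDK6, the other such partner, had 17.2, 21.9 and 25.4 FPKM in the OTX libraries, against 28.1, 26.0 and 23.2 FPKM in the DMSO libraries. Its groups overlapped, with OTX replicate 3 above DMSO replicate 3, and its log2 difference was -0.26 ± 0.14 (adjusted p = 0.149, and 0.0385 without OTX replicate 3). The S phase activator E2F1 and its relative E2F8 rose by 0.58 and 0.57 on the log2 scale. E2F4, which acts with repressors, fell by 0.46. In all, 7 of 17 genes of the list were higher and 4 lower (median 0.18).

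DNA replication genes were called less often than the tested genes as a whole. Of 37 tested genes, 6 were higher (16.2%, against 29.0%) and 6 lower (16.2%, against 27.3%). Their median of 0.0061 turned to -0.0075 when the libraries were rescaled, -0.0040 without DMSO replicate 3 and -0.013 without OTX replicate 1. PCNA, the sliding clamp of the polymerases, rose by 0.53 on the log2 scale, to 467 FPKM under OTX, against 322 FPKM in DMSO, and the single-strand binding subunits RPA1 and RPA3 by 0.49 and 0.58. POLD2, a subunit of polymerase delta, fell by 0.84 on the log2 scale, to 105 FPKM under OTX, against 189 FPKM in DMSO, and POLE2, a subunit of polymerase epsilon, by 0.75. Mitosis and G2/M genes were higher in 23 of 39 cases and lower in 1 (median 0.31). The cytokinesis scaffold ANLN had 43.6, 45.9 and 44.0 FPKM in the OTX libraries, against 26.1, 27.3 and 25.3 FPKM in the DMSO libraries, a log2 change of 0.74 with no overlap. The phosphatase CDC25C rose by 0.57 on the log2 scale, the condensin subunit NCAPH by 0.55 and the motor protein KIF4A by 0.60. CDC25A, the phosphatase of S phase entry, was the 1 gene of this list that fell, by 0.63 on the log2 scale, to 14.5 FPKM under OTX, against 23.1 FPKM in DMSO.

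Histone transcripts in this polyadenylated RNA were higher in 15 of 25 tested genes and lower in 1 (median 0.75). HIST1H2BK rose by 1.502 on the log2 scale, to 26.3 FPKM under OTX, against 8.58 FPKM in DMSO, HIST1H2BJ by 1.23 and HIST2H2AC by 0.88, while HIST3H2A fell by 0.46. Histone genes have near-identical copies, so how reads were divided among them is uncertain. Of 21 targets of p53, 10 were higher and 3 lower (median 0.18). Apart from CDKN1A the rises were under 1 on the log2 scale, with SESN1, a stress-induced brake on growth, at 0.70, the repair factor XPC at 0.68 and ZMAT3 at 0.60. AEN, a nuclease of cell death, fell by 1.01 on the log2 scale, and TRIAP1, a mitochondrial survival protein, by 1.06.

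The BCL2 family, whose members hold back or start mitochondrial cell death, had 4 of 16 tested genes higher and 3 lower. BCL2, the survival member, had 7.42, 7.66 and 6.24 FPKM in the OTX libraries, against 6.95, 8.38 and 8.17 FPKM in the DMSO libraries. Its groups overlapped, and the difference was -0.12 ± 0.11 (adjusted p = 0.335). MCL1, a survival member, had 90.3, 87.3 and 91.4 FPKM in the OTX libraries, against 42.2, 48.5 and 43.5 FPKM in the DMSO libraries, a log2 change of 0.99. The survival members BCL2L1 and BCL2A1 fell by 0.70 on the log2 scale, to 18.3 FPKM under OTX, against 30.3 FPKM in DMSO, and by 0.61, to 17.4 FPKM under OTX, against 27.0 FPKM in DMSO. BMF and BIK, which promote death, rose by 1.15 and 0.86 on the log2 scale, and BNIP3L, which also marks mitochondria for removal, by 1.08. MCL1 lay higher in each OTX library. The list's median of 0.00044 was -0.014 after rescaling, -0.016 without DMSO replicate 1 and -0.11 without OTX replicate 1.

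**Figure D3:**
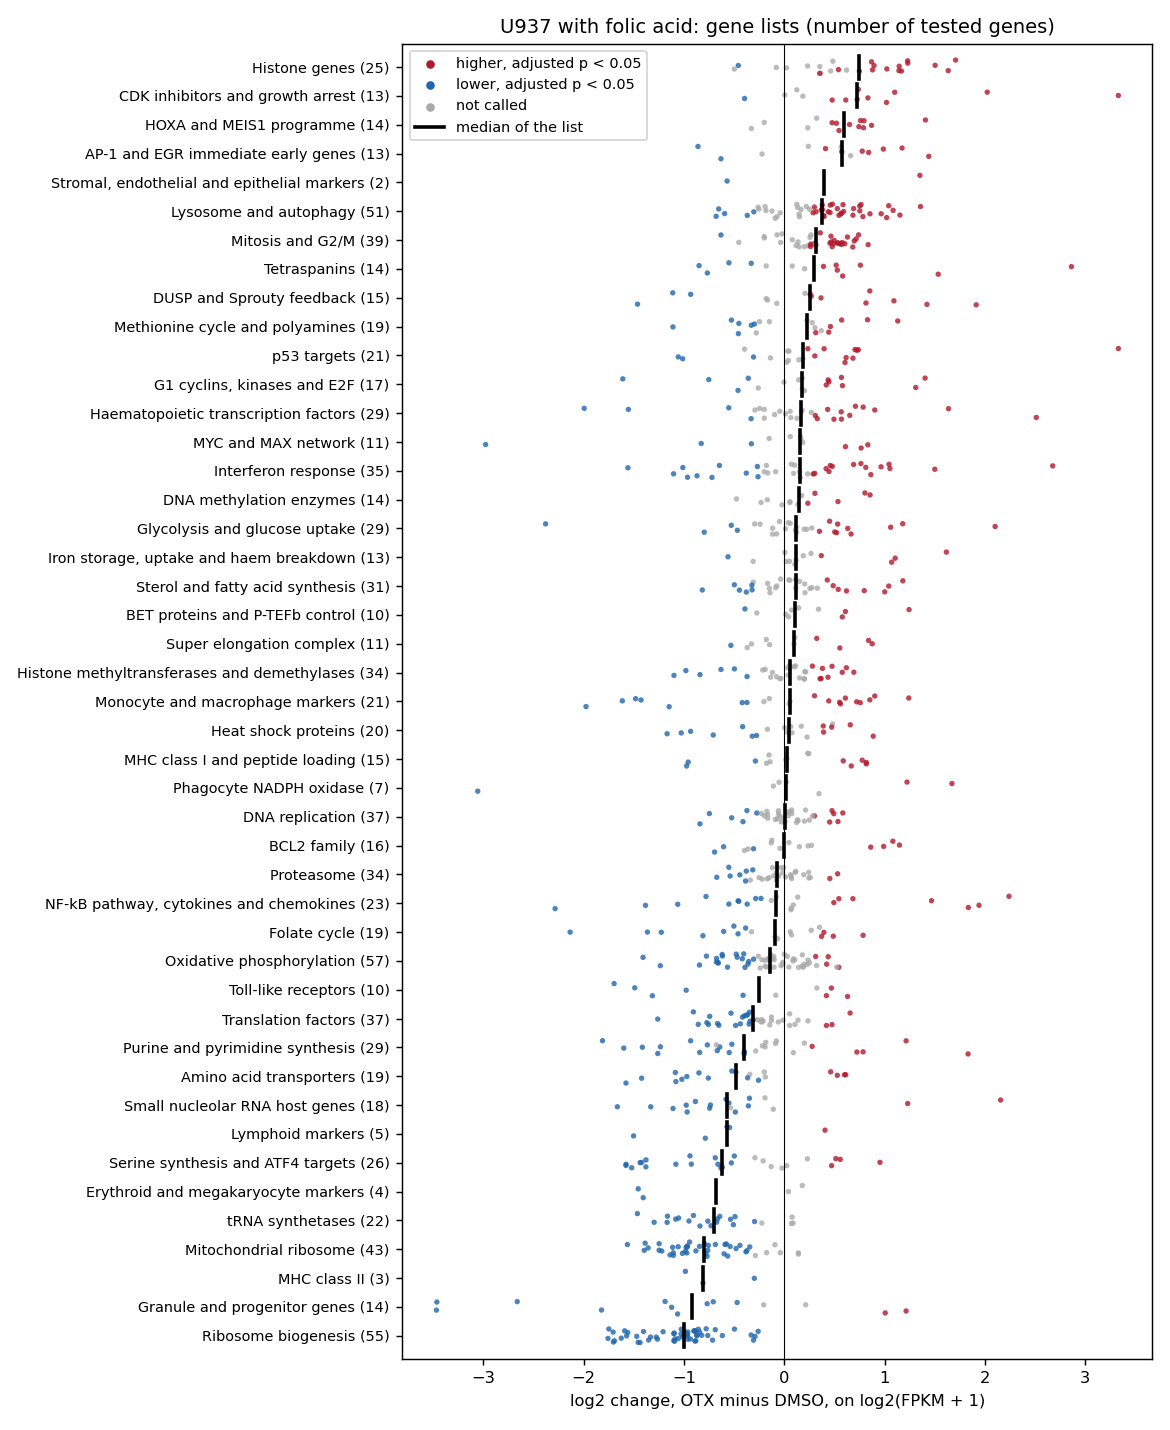
Log2 change, OTX minus DMSO, of each tested gene in 45 gene lists (rows, with the number of tested genes), ordered by median; red points are higher and blue points lower at an adjusted p below 0.05, grey points were not called, and the black bar is the median. Ribosome biogenesis has a median of -0.996 and histone genes one of 0.75, which was 0.35 with no filter on low values.

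Most genes of the lysosome and of autophagy rose. Of 51 tested genes, 31 were higher, against 29.0% of all tested genes, and 5 lower (median 0.38). WIPI1, which marks forming autophagosomes, had 18.1, 19.9 and 20.0 FPKM in the OTX libraries, against 7.88, 6.17 and 6.79 FPKM in the DMSO libraries, a log2 change of 1.36 with no overlap. NEU1, lysosomal sialidase, had 159, 139.8 and 139 FPKM in the OTX libraries, against 70.4, 66.3 and 67.8 FPKM in the DMSO libraries, and MCOLN1, the lysosomal calcium channel, rose to 17.7 FPKM under OTX, against 8.09 FPKM in DMSO. MAP1LC3B, the autophagosome protein LC3, rose by 0.96 on the log2 scale, to 38.6 FPKM under OTX, against 19.3 FPKM in DMSO. These 4 genes separated the groups in every library. The lipase LIPA fell by 0.68 on the log2 scale, the protease CTSS by 0.65 and TFEB, a regulator of lysosomal genes, by 0.60, to 6.91 FPKM under OTX, against 10.9 FPKM in DMSO.

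Iron and haem genes changed in 5 of 13 cases, against 56.3% of all tested genes, with 4 higher and 1 lower. FTH1, the heavy chain of ferritin, had 797, 757 and 787 FPKM in the OTX libraries, against 280.3, 239 and 245 FPKM in the DMSO libraries, a log2 change of 1.61. FTL, the light chain, was among the most abundant transcripts and had 13941, 8887 and 7022 FPKM in the OTX libraries, against 3529.8, 4897 and 5059 FPKM in the DMSO libraries, a log2 change of 1.10. The haem-degrading enzyme HMOX1 rose by 1.07 on the log2 scale, to 9.56 FPKM under OTX, against 3.97 FPKM in DMSO, and the haem exporter FLVCR1 fell by 0.56. Sterol and fatty acid synthesis had 8 of 31 tested genes higher and 6 lower (median 0.11). INSIG1, a brake on sterol synthesis, rose by 1.04 on the log2 scale, to 561 FPKM under OTX, against 271 FPKM in DMSO, and the desaturase FADS1 by 1.0005, to 104 FPKM under OTX, against 51.4 FPKM in DMSO. CYP51A1, a demethylase of sterol synthesis, fell by 0.82 on the log2 scale.

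Glycolysis and glucose uptake had 10 of 29 tested genes higher and 4 lower (median 0.12). The glucose carrier SLC2A3 rose by 1.06 on the log2 scale, to 21.3 FPKM under OTX, against 9.73 FPKM in DMSO, and SLC2A5, the fructose carrier, had 4.88, 5.56 and 5.46 FPKM in the OTX libraries, against 35.8, 28.9 and 30.8 FPKM in the DMSO libraries, a log2 change of -2.38. The lactate carrier SLC16A1 fell by 0.80 on the log2 scale. Oxidative phosphorylation had 19 of 57 genes lower, against 27.3% of all tested genes, and 4 higher (median -0.15). ATP5G1, a subunit of the ATP synthase rotor, fell by 1.41 on the log2 scale, to 83.7 FPKM under OTX, against 223 FPKM in DMSO, and the electron carrier CYCS by 0.85. Heat shock proteins went both ways. The mitochondrial chaperones HSPD1, HSPE1 and HSPA9 fell by 1.03, 1.17 and 0.93 on the log2 scale, and the cytosolic cochaperone DNAJB1 rose by 0.89. The list had 5 of 20 tested genes higher and 7 lower, and its median of 0.048 was -0.021 without DMSO replicate 3. The proteasome had 2 of 34 tested genes higher (5.88%, against 29.0% of all tested genes) and 7 lower (20.6%, against 27.3%). PSMB5, a catalytic subunit, had a log2 change of -0.67.

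Genes of myeloid identity did not move as 1 group. In bulk RNA, fewer cells of a type and less RNA per cell cannot be told apart. Granule and progenitor genes were lower in 10 of 14 cases and higher in 2 (median -0.92). Beside MS4A3, PLAC8 and PRTN3, the protease inhibitor CST7 fell by 1.82 on the log2 scale, to 177 FPKM under OTX, against 628 FPKM in DMSO. CFD, complement factor D, had 132, 112 and 109 FPKM in the OTX libraries, against 47.8, 50.8 and 51.4 FPKM in the DMSO libraries, a log2 change of 1.21. MPO, myeloperoxidase, was low, with 1.59, 1.139 and 1.47 FPKM in the OTX libraries, against 0.263, 0.191 and 0.122 FPKM in the DMSO libraries, and also rose. MPO and CFD lay above DMSO in all 3 OTX libraries.

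The subunits of the phagocyte oxidase, which makes superoxide, went in opposite directions. CYBB, its membrane catalyst, fell by 3.06 on the log2 scale, while the cytosolic organiser NCF1 had 30.9, 20.9 and 24.4 FPKM in the OTX libraries, against 8.70, 6.44 and 6.64 FPKM in the DMSO libraries, a log2 change of 1.67. RAC2, the GTPase that activates the complex in blood cells, rose by 1.22 on the log2 scale, to 369 FPKM under OTX, against 157 FPKM in DMSO. Of the other genes of the list, CYBA, NCF4 and RAC1 had log2 differences of -0.11, 0.020 and 0.34 and were not called. Without DMSO replicate 1 or OTX replicate 1, RAC1 was called (adjusted p = 0.0179 and 0.0381). NCF1 is known to have near-identical pseudogenes, so its level is uncertain.

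Monocyte and macrophage markers were higher in 10 of 21 cases and lower in 7. ITGAM, the integrin CD11b, had 10.99, 10.8 and 11.6 FPKM in the OTX libraries, against 4.56, 3.90 and 3.99 FPKM in the DMSO libraries, a log2 change of 1.24. ITGAX, the integrin CD11c, rose by 0.76 on the log2 scale, to 4.04 FPKM under OTX, against 1.98 FPKM in DMSO. FCER1G, the signalling chain of Fc receptors, rose by 0.85 on the log2 scale. FCGR1A, the high-affinity IgG receptor, had 0.962, 0.712 and 1.12 FPKM in the OTX libraries, against 6.85, 4.13 and 4.08 FPKM in the DMSO libraries, a log2 change of -1.62. The membrane protein MS4A7 fell by 1.98 on the log2 scale, the lectin FCN1 by 1.43 and LST1 by 1.15. ITGAM and FCGR1A each separated the groups, in opposite directions. The list's median of 0.056 was -0.0083 without OTX replicate 3.

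Of 29 haematopoietic transcription factors, 12 rose and 4 fell. IRF8, a determinant of monocyte fate, had 13.0003, 13.4 and 11.6 FPKM in the OTX libraries, against 51.6, 54.2 and 54.4 FPKM in the DMSO libraries, a log2 change of -1.995 ± 0.087 (adjusted p = 3.19e-06). CEBPE, a factor of granulocyte maturation, fell by 1.55 on the log2 scale, to 2.07 FPKM under OTX, against 7.99 FPKM in DMSO, and SPI1, the myeloid factor PU.1, by 0.55, to 94.5 FPKM under OTX, against 139 FPKM in DMSO. IRF8 was lower in each OTX library. KLF2, a factor of quiescence, had 4.21, 3.07 and 2.82 FPKM in the OTX libraries, against 0.299, 0.357 and 0.529 FPKM in the DMSO libraries, a log2 change of 1.64, and the repressor BCL6 rose by 0.71 on the log2 scale.

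The HOXA and MEIS1 programme is known to be switched on by the PICALM-MLLT10 fusion. Its list here also holds the fusion partners PICALM and MLLT10. Of its 14 tested genes, 10 were higher, PICALM among them, against 29.0% of all tested genes, and 0 lower (median 0.60). MEIS1, a HOX partner, had 88.6, 98.0 and 113 FPKM in the OTX libraries, against 42.6, 34.2 and 34.3 FPKM in the DMSO libraries, a log2 change of 1.41 ± 0.13 (adjusted p = 5.33e-05). PBX3, another partner, rose by 0.79 on the log2 scale, to 13.1 FPKM under OTX, against 7.15 FPKM in DMSO. The OTX libraries of MEIS1 all lay above those of DMSO. HOXA9 had 84.8, 70.2 and 48.9 FPKM in the OTX libraries, against 29.9, 43.3 and 46.5 FPKM in the DMSO libraries, a log2 change of 0.74 ± 0.22, and was not called without OTX replicate 1 (adjusted p = 0.0577) or 2 (0.0611). HOXA10 had 122, 96.6 and 78.5 FPKM in the OTX libraries, against 46.6, 76.2 and 66.2 FPKM in the DMSO libraries, a log2 change of 0.65 ± 0.21, and was not called without DMSO replicate 1 (0.0575) or OTX replicate 1 (0.0753) or 2 (0.0635). HOXA11 rose by 0.79 on the log2 scale and HOXA13 by 0.76. PICALM, a partner of the fusion, rose by 0.48, and MLLT10, the other, had a log2 difference of -0.33 (adjusted p = 0.0512). It was called without OTX replicate 3 (0.0410), after rescaling (0.0361), with a pseudocount of 0.1 FPKM (0.0478), with a filter at 5 FPKM (0.0466) and with small RNA symbols left out (0.0444). FPKM of PICALM and MLLT10 do not separate the fused transcript from those of the normal genes.

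**Figure D4:**
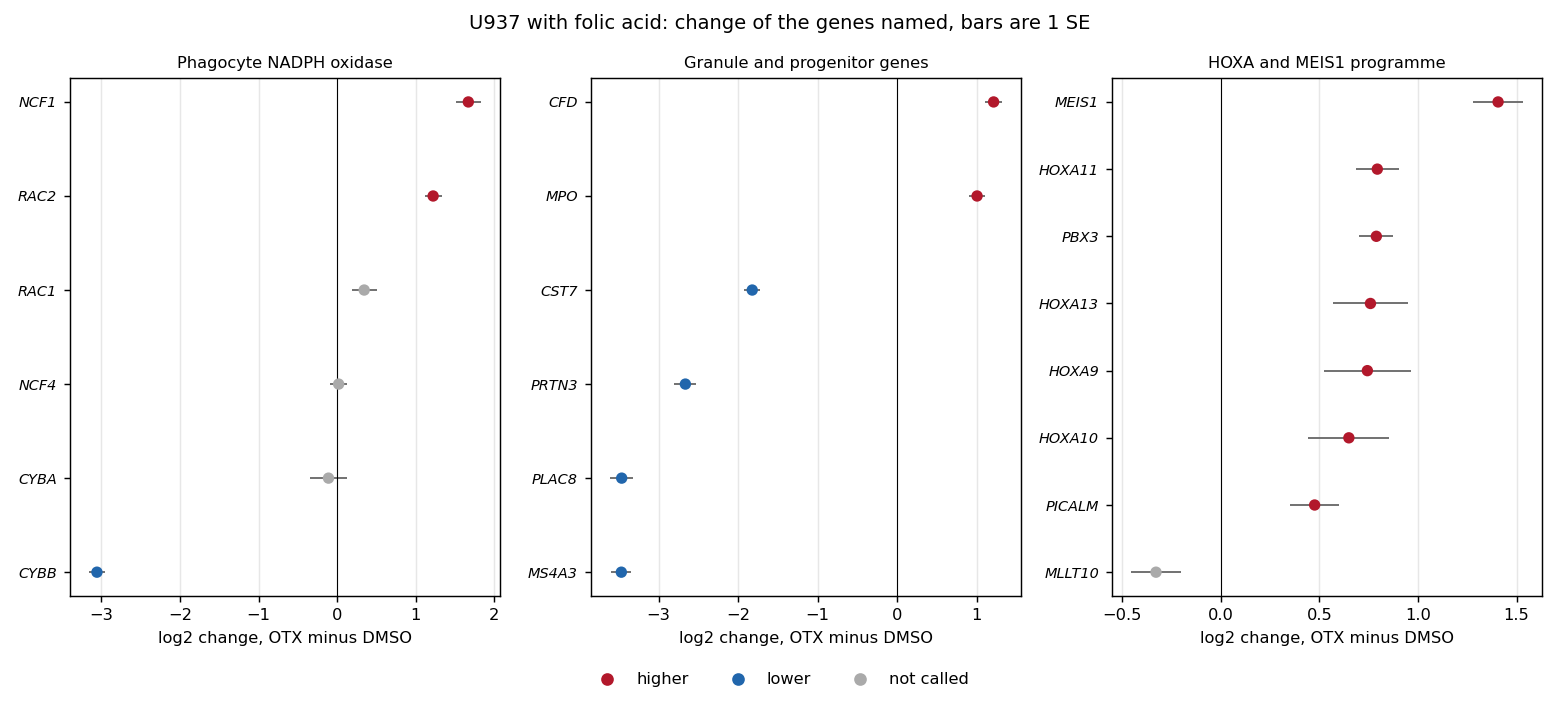
Log2 change, OTX minus DMSO, of the genes named here of the phagocyte NADPH oxidase, of granule and progenitor genes, and of the HOXA and MEIS1 programme in U937 with folic acid; points are estimates from 3 OTX and 3 DMSO libraries, bars 1 SE, red higher, blue lower and grey not called. CYBB stands at -3.06 and NCF1 at 1.67 in the same complex, and MEIS1 stands highest of its list at 1.41.

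Interferon response genes went both ways, with 15 of 35 tested genes higher and 10 lower (median 0.15). Beside IRF7, the activator IRF1 had 11.4, 9.42 and 11.1 FPKM in the OTX libraries, against 3.53, 2.83 and 2.99 FPKM in the DMSO libraries, a log2 change of 1.499, and IFI16, a sensor of DNA, rose by 1.04 on the log2 scale, to 35.2 FPKM under OTX, against 16.5 FPKM in DMSO. IFITM1, which blocks virus entry, fell by 1.56 on the log2 scale, to 9.21 FPKM under OTX, against 29.2 FPKM in DMSO, the RNA sensor IFIH1 by 1.10, to 2.13 FPKM under OTX, against 5.74 FPKM in DMSO and the antiviral GTPase MX2 by 0.87. MHC class I and peptide loading had 5 of 15 tested genes higher and 3 lower. B2M, the light chain of class I, rose by 0.82 on the log2 scale, to 2633 FPKM under OTX, against 1499 FPKM in DMSO and HLA-E by 0.78, while TAP2, a peptide transporter subunit, fell by 0.96 and its partner TAP1 rose by 0.67. All 3 tested genes of MHC class II fell, among them the invariant chain CD74, which had 25.03, 24.1 and 22.8 FPKM in the OTX libraries, against 50.3, 44.5 and 50.6 FPKM in the DMSO libraries.

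Genes of Toll-like receptors and of the proteins that work with them were lower in 5 of 10 cases and higher in 3. LY86, a partner of a Toll-like receptor relative, fell by 1.70 on the log2 scale, to 2.34 FPKM under OTX, against 9.85 FPKM in DMSO, the kinase IRAK1 by 1.49, to 53.4 FPKM under OTX, against 151 FPKM in DMSO and UNC93B1, which carries receptors to endosomes, by 0.98. The adaptor TIRAP rose by 0.63 on the log2 scale. The list of NF-kB genes, cytokines and chemokines had 7 of 23 tested genes higher and 10 lower. IL1B, an inflammatory cytokine, had 7.34, 7.42 and 10.1 FPKM in the OTX libraries, against 2.31, 1.19 and 1.37 FPKM in the DMSO libraries, a log2 change of 1.83, and TNF rose by 1.47 on the log2 scale, to 5.53 FPKM under OTX, against 1.33 FPKM in DMSO. CCL2, which attracts monocytes, had 3.20, 3.31 and 3.02 FPKM in the OTX libraries, against 21.003, 19.6 and 17.6 FPKM in the DMSO libraries, a log2 change of -2.28, and IL8, which attracts neutrophils, fell by 1.38 on the log2 scale. The cytokines IL1B and TNF lay higher, and the chemokines CCL2, IL8, CXCL16 (log2 -1.06) and CCL5 (log2 -0.78) lower.

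Immediate early genes had 7 of 13 tested genes higher and 2 lower (median 0.57). EGR1 rose by 1.44 on the log2 scale, to 2.68 FPKM under OTX, against 0.348 FPKM in DMSO and FOSL2 by 1.17, to 18.9 FPKM under OTX, against 7.79 FPKM in DMSO, and FOSL1 fell by 0.86. Of the genes that damp MAP kinase signals, 8 of 15 were higher and 3 lower. DUSP6, the phosphatase of ERK, had 87.8, 78.2 and 75.8 FPKM in the OTX libraries, against 21.4, 21.1 and 19.4 FPKM in the DMSO libraries, a log2 change of 1.91, and SPRY2, an inhibitor of receptor signals, rose by 1.42 on the log2 scale, to 42.3 FPKM under OTX, against 15.2 FPKM in DMSO. DUSP2, DUSP3 and DUSP16 fell by 1.46, 1.11 and 0.93 on the log2 scale. Of 14 tetraspanins, 7 rose and 4 fell. After CD82 the largest rise among them was that of CD53, by 1.53 on the log2 scale, to 45.2 FPKM under OTX, against 15.2 FPKM in DMSO, and TSPAN4 fell by 0.85.

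Genes that mark other cell types were mostly untested for their low values. Of 22 lymphoid markers 5 were tested, 1 higher and 4 lower. The B cell receptor chain CD79A fell to 1.96 FPKM under OTX, against 4.11 FPKM in DMSO. PAX5, a B cell factor, fell to 0.519 FPKM under OTX, against 1.26 FPKM in DMSO. EBF1, another such factor, rose by 0.41 on the log2 scale, to 1.07 FPKM under OTX, against 0.564 FPKM in DMSO. Of 19 erythroid and megakaryocyte markers 4 were tested, and KLF1 and TFR2 fell by 1.46 and 1.41 on the log2 scale. Of 17 stromal, endothelial and epithelial markers 2 were tested, and ACTA2 rose by 1.35 on the log2 scale while PECAM1 fell by 0.57. These levels moved with the groups, and their part in the other changes was not tested.

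The most abundant transcripts are those that weigh most in an FPKM sum. TMSB4X, thymosin beta 4, which binds free actin, had 18780.0, 16123 and 14451 FPKM in the OTX libraries, against 9559, 7267 and 6949 FPKM in the DMSO libraries, a log2 change of 1.06. The actins ACTB and ACTG1 rose by 0.75 and 1.13 on the log2 scale, and the glycolytic enzyme GAPDH by 0.53, to 5313 FPKM under OTX, against 3693 FPKM in DMSO. All of these, and FTL and LGALS1, lay higher in each OTX library. The ribosomal protein RPLP1 had 9279, 9509 and 10473 FPKM in the OTX libraries, against 9619, 6595 and 6315 FPKM in the DMSO libraries, with overlapping groups and a log2 difference of 0.40 (adjusted p = 0.0783). RPLP1 was called without DMSO replicate 1 (adjusted p = 0.00104). RPS2, another ribosomal protein, fell by 0.38 on the log2 scale, to 3385 FPKM under OTX, against 4398 FPKM in DMSO, and lost its call without any 1 of DMSO replicate 2 (adjusted p = 0.0590), OTX replicate 2 (0.0987) and OTX replicate 3 (0.0840). RPL39, also of the ribosome, fell by 0.38 on the log2 scale, to 3097 FPKM under OTX, against 4035 FPKM in DMSO, and lost its call without any 1 of DMSO replicates 2 and 3 and OTX replicates 2 and 3 (adjusted p = 0.0566 to 0.114). RPS18 and RPL41 had log2 differences of -0.19 and -0.13 and were not called (adjusted p = 0.389 and 0.467).

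The difference between U937 with and without folic acid was tested gene by gene, as the OTX change with folic acid minus the OTX change without it. In limma, 225 of 11194 genes (2.01%) differed, 142 higher (1.27%) and 83 lower (0.741%) with folic acid. The share of higher calls was 63.1%, and 43.0% among 237 calls after the libraries were rescaled. The count of 225 depended on single libraries. It was 2184 without DMSO replicate 1 of the cells with folic acid and 2704 without DMSO column 1 of those without it (whose columns are numbered 0 to 2), 79 without OTX column 0, and 1 or 2 without any other single library. FADS1, the desaturase of long-chain fatty acids, was called in every alternative. It had 104 ± 1.99 FPKM under OTX and 51.4 ± 2.74 FPKM in DMSO with folic acid, and 43.1 ± 2.42 FPKM under OTX and 43.9 ± 1.87 FPKM in DMSO without it (mean ± SD, n = 3 each), a difference in log2 change of 1.03 ± 0.10 (SE; adjusted p = 0.00590). The other genes called in this difference and named here had adjusted p-values of 0.0379 to 0.0496.

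Among the 8 largest positive differences of called genes with at least 5 FPKM in a group were the replication helicase subunits MCM5 and MCM2, at 1.16 ± 0.25 and 1.005 ± 0.19, and the biliverdin reductase BLVRB, at 1.10 ± 0.20. MCM5 had 137 ± 10.1 FPKM under OTX and 120.0 ± 22.6 FPKM in DMSO with folic acid, and 82.7 ± 9.97 FPKM under OTX and 164 ± 42.1 FPKM in DMSO without it. The smooth muscle actin ACTA2 differed by 1.002 ± 0.20 and the proline-rich protein PRR19 by 1.02 ± 0.23. The antisense transcript PCNA-AS1 differed by 1.32 ± 0.22, and its reads cannot be told apart from those of PCNA, since the strand used in counting is not stated. The readthrough transcript SLMO2-ATP5E differed by 4.11 ± 0.89, with reads that may be divided among its parent genes. It had 15.4 ± 6.17 FPKM under OTX and 7.63 ± 5.54 FPKM in DMSO with folic acid, and 2.57 ± 2.68 FPKM under OTX and 24.0 ± 10.9 FPKM in DMSO without it. Its libraries scattered within each group.

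The 8 largest negative differences included 2 subunits of respiratory complex I, NDUFC2 at -1.38 ± 0.30 and NDUFB5 at -1.24 ± 0.25. NDUFB5 had 41.4 ± 3.92 FPKM under OTX and 56.0 ± 8.79 FPKM in DMSO with folic acid, and 63.0 ± 4.81 FPKM under OTX and 36.2 ± 9.49 FPKM in DMSO without it, so OTX libraries averaged below DMSO with folic acid and above it without. DLX2, a homeobox factor, differed by -1.63 ± 0.30, and had 1.93 ± 0.605 FPKM under OTX and 1.80 ± 0.689 FPKM in DMSO with folic acid, and 6.92 ± 1.30 FPKM under OTX and 1.44 ± 0.497 FPKM in DMSO without it. The antisense transcript HIF1A-AS2 differed by -1.59 ± 0.31, C6orf203 by -1.53 ± 0.30 and the selenoprotein SELM by -1.44 ± 0.33. The splicing protein SNRNP27 differed by -1.40 ± 0.29 and RPF2, which acts in ribosome assembly, by -1.23 ± 0.27. Of genes named for other reasons, 8 were called in this difference. It was 0.67 ± 0.11 for ECM1, 0.80 ± 0.17 for IL8 and 0.63 ± 0.13 for TK1, the thymidine kinase, and -0.54 ± 0.11 for NEAT1, -0.59 ± 0.13 for LIPA, -0.60 ± 0.13 for PECAM1, -1.02 ± 0.23 for CYCS and -1.16 ± 0.20 for IGLL1, a surrogate light chain of B cell precursors. All of these genes but FADS1 lost their call without any 1 of DMSO replicates 2 and 3 and the 3 OTX replicates with folic acid, and of DMSO columns 0 and 2 and OTX columns 1 and 2 of the cells without it. Without OTX column 0 the call was kept by ECM1, HIF1A-AS2, IGLL1, MCM2, PCNA-AS1 and SLMO2-ATP5E and lost by the others.

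None of the 7 genes named whatever their result was called between the folic acid conditions. The OTX change of MYC was -2.98 with folic acid and -3.08 without it, and that of CDKN1A 3.33 with it and 3.61 without it. HEXIM1 changed by 1.24 with folic acid and 2.02 without it, a difference of -0.78 ± 0.26 (adjusted p = 0.0810), and SERPINI1 by 1.16 with it and 2.001 without it, a difference of -0.84 ± 0.21 (adjusted p = 0.0525). HEXIM1 was called without DMSO column 1, and SERPINI1 without DMSO column 1 or DMSO replicate 1, or with small RNA symbols left out (adjusted p = 0.0482). For BRD2, BCL2 and CDK6 the differences were 0.14, 0.057 and 0.44.

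More genes differed between the 2 lines. The OTX change in U937 with folic acid differed from that in IMS-M2 with folic acid in 5714 of 12022 genes (47.5%), 3092 higher (25.7%) and 2622 lower (21.8%) in U937. MYC had 24.0 ± 1.27 FPKM under OTX and 196 ± 10.1 FPKM in DMSO in U937, and 142 ± 0.748 FPKM under OTX and 197 ± 11.2 FPKM in DMSO in IMS-M2, so the DMSO levels were close and the log2 changes were -2.98 in U937 and -0.47 in IMS-M2. The difference was -2.51 ± 0.10 (adjusted p = 1.22e-08). HEXIM1 rose less in U937, by 1.24 on the log2 scale against 2.31 in IMS-M2 (difference -1.06 ± 0.19, adjusted p = 0.00100). CDKN1A rose more in U937, with 135 ± 7.61 FPKM under OTX and 28.5 ± 1.12 FPKM in DMSO in IMS-M2, by a difference of 1.13 ± 0.14 (adjusted p = 4.89e-05). BCL2 differed by -0.42 ± 0.15 (adjusted p = 0.0415), a call lost without any 1 of U937 DMSO replicates 2 and 3, U937 OTX replicate 3, IMS-M2 DMSO replicate 3 and the 3 IMS-M2 OTX replicates. BRD2, SERPINI1 and CDK6 had differences of -0.25, 0.087 and -0.34 and were not called. BRD2 was called after rescaling (difference -0.34, adjusted p = 0.0290). Whether the tables of the lines share a normalization is not stated, so each change was taken within its own table.

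Among the lists, ribosome biogenesis genes fell further in U937, with 43 of 55 lower in the difference and 0 higher, against 21.8% lower among all genes of that test. Mitochondrial ribosomal genes had 29 of 43 lower and 2 higher, and tRNA synthetases 12 of 22 lower and 0 higher. Against 25.7% higher among all genes of that test, lysosome and autophagy genes had 22 of 51 higher in U937 and 4 lower. Monocyte and macrophage markers had 14 of 21 higher and 5 lower. These counts are over members tested in U937 with folic acid, whereas the shares are over 12022 genes, including those that reached 1 FPKM only in IMS-M2. Members near 0 in IMS-M2 were not counted apart. Single genes went in opposite directions. CD53, a tetraspanin of blood cells, had 45.2 ± 8.40 FPKM under OTX and 15.2 ± 4.82 FPKM in DMSO in U937, and 5.30 ± 0.723 FPKM under OTX and 39.8 ± 10.01 FPKM in DMSO in IMS-M2, a difference of 4.20 ± 0.31 (adjusted p = 9.35e-07). ECM1 changed by 2.15 in U937 and -1.75 in IMS-M2 (difference 3.90 ± 0.14, adjusted p = 5.39e-09), and LGALS1 by 2.12 in U937 and -0.47 in IMS-M2 (difference 2.59 ± 0.24, adjusted p = 5.03e-06). MS4A3, CYBB and PRTN3 were near 0 in IMS-M2 in DMSO, at 0.0610, 0.199 and 0.221 FPKM.

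The 8 largest positive differences from IMS-M2, taken in the same way, included genes near 0 FPKM in U937. The chemokine CCL1 was listed at 0 in all U937 libraries and in IMS-M2 under OTX, and had 34.7 FPKM in IMS-M2 in DMSO, a difference of 5.15 ± 0.080. ANGPT1, the ligand angiopoietin 1, was also listed at 0 in U937 and differed by 4.13 ± 0.10. SELP, the adhesion molecule P-selectin, differed by 4.30 ± 0.10, the amino acid carrier SLC38A5 by 4.56 ± 0.13 and C21orf90 by 3.97 ± 0.28. The log2 changes of these 5 genes were -0.21 to 0.058 in U937 and -5.15 to -3.91 in IMS-M2. IGLL1 had log2 changes of -1.502 in U937 and -6.26 in IMS-M2 and differed by 4.76 ± 0.21, with 0.05005 ± 0.0584 FPKM under OTX and 2.01 ± 0.540 FPKM in DMSO in U937, and 1.44 ± 0.106 FPKM under OTX and 188 ± 40.2 FPKM in DMSO in IMS-M2. The readthrough COMMD3-BMI1 differed by 5.91 ± 2.18 (adjusted p = 0.0428), with U937 libraries that scattered from 8.18 to 515 FPKM under OTX and from 0.455 to 40.6 FPKM in DMSO. Its call was lost without any 1 of U937 DMSO and OTX replicates 2 and 3, IMS-M2 DMSO replicates 2 and 3 and the 3 IMS-M2 OTX replicates. Beside MYC, the 8 largest negative differences included FCER2 at -3.03 ± 0.081, MS4A3 at -3.42 ± 0.14 and CYBB at -2.80 ± 0.12. TBXA2R differed by -2.54 ± 0.17, TARP by -2.51 ± 0.19 and PRTN3 by -2.48 ± 0.17. FCER2 and TBXA2R, too, were near 0 in IMS-M2 in DMSO, at 0.00621 and 0.0277 FPKM, which left little room for a fall there. The noncoding RNA BCYRN1 differed by -3.74 ± 1.26 (adjusted p = 0.0293), with DMSO libraries from 53.8 to 238 FPKM in U937. Its call was lost without any 1 of U937 DMSO and OTX replicates 2 and 3, IMS-M2 DMSO replicates 2 and 3 and IMS-M2 OTX replicates 1 and 2.

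**Figure D5:**
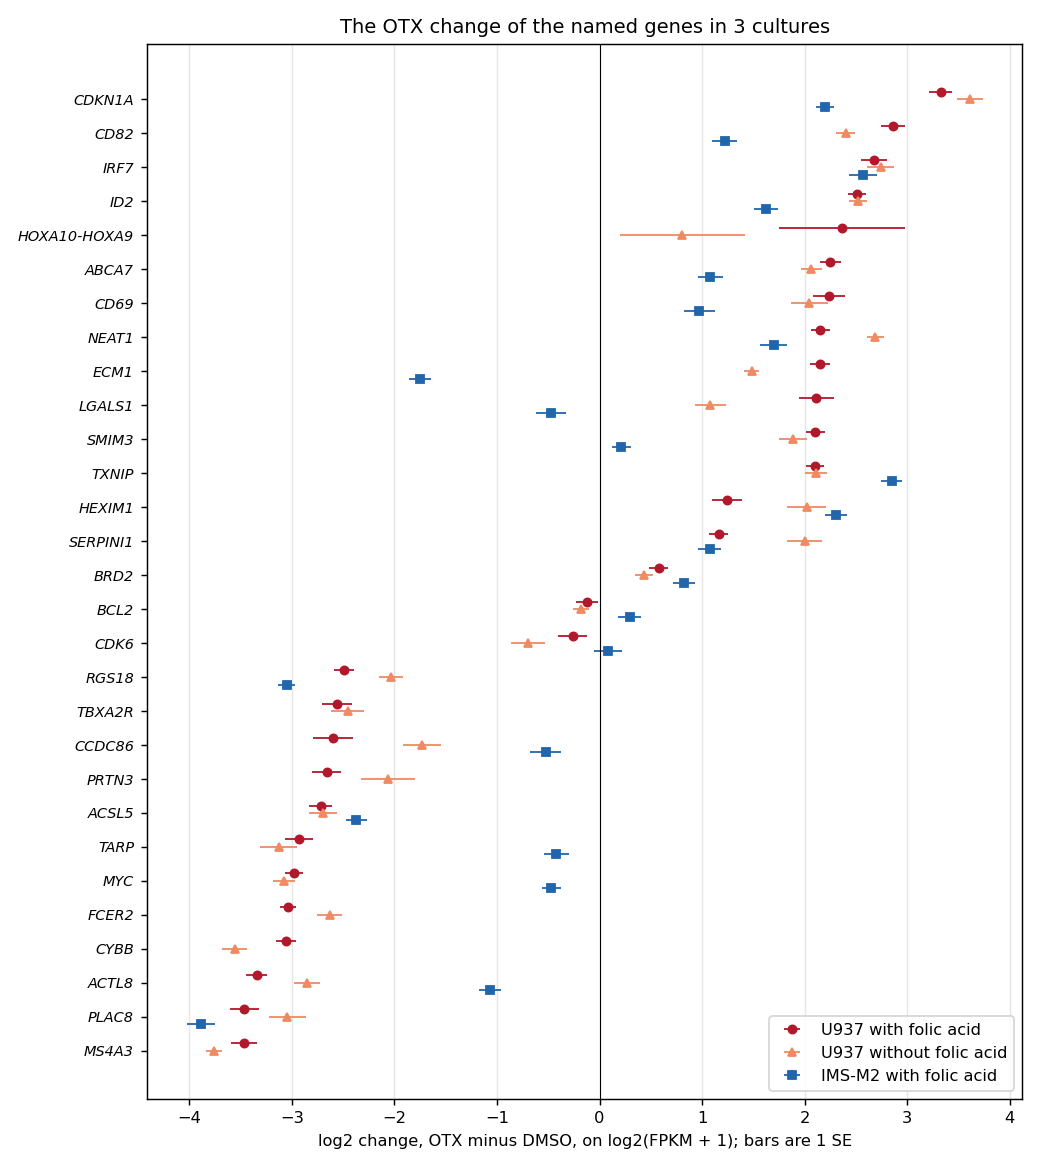
Log2 change, OTX minus DMSO, of the 7 genes named whatever their result and of the 12 largest rises and 12 largest falls, in U937 with folic acid (circles), U937 without it (triangles) and IMS-M2 with it (squares), each from the fit of its own 6 libraries with bars of 1 SE; a missing point is a gene below 1 FPKM in that table. MYC stands near -3 in both U937 cultures and at -0.47 in IMS-M2.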

How the data were processed

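The deposited values were FPKM per gene in 4 tables, 1 for each line and medium, with 3 OTX and 3 DMSO libraries each. The file headers name no unit, and FPKM was taken from the gene table layout and from the tools that the submitters' processing notes list with no role or order, bcl2fastq 2.17.1.14, TopHat2 2.1.1 and Cuffdiff 2.2.1 with build hg19. Per the labels' protocols, libraries were stranded and made from polyadenylated RNA. Depth is unknown, and whether the tables were normalized together is not stated. Genes whose mean reached 1 FPKM in 1 group were tested on log2(FPKM + 1) with limma 3.58.1 in R 4.3.3 (trended empirical Bayes, Benjamini-Hochberg adjustment over all tested genes). Differences between cultures came from 12-library fits, as the change in U937 with folic acid minus the change in the other culture. Figures used matplotlib 3.10.9 and the fit was tested on simulated data. An exact 0 is given as listed at 0. Of the tested genes, 2807 share a locus in the table, which can divide reads among them.

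The text names 7 genes whatever their result (others of the naming rule are not reported here), the 12 highest and 12 lowest non-overlapping called changes among genes that reached 5 FPKM in a group, up to 4 members per direction and list with the smallest p, any member of lists of 15 or fewer, the 8 most abundant genes of each group, and the 8 highest and lowest differences. The members, the 45 lists and the tests were chosen with earlier results of these data known. Alternatives were a pseudocount of 0.1 FPKM, no filter or 5 FPKM, rescaling by the median ratio, leaving out small RNA symbols, the replicate number as a block, all 12 U937 libraries, and leaving out each library. After the data were seen, DMSO replicate 1 and OTX replicate 3 were left out together.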

Additional observations from a re-analysis of the deposited data

Results flagged for a closer look

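The OTX change in U937 with folic acid differed from that in U937 without it for the 24 genes below, of 248 named genes tested, by limma's test of the difference in a fit of 12 libraries (n = 3 a group). The log2 difference was 1.03 for FADS1 (adjusted p = 0.00590), which was called under every alternative tried. It was positive for SLMO2-ATP5E (4.11), PCNA-AS1 (1.32), MCM5 (1.16), BLVRB (1.10), PRR19 (1.02), MCM2 (1.005), ACTA2 (1.002), IL8 (0.80), ECM1 (0.67) and TK1 (0.63). It was negative for DLX2 (-1.63), HIF1A-AS2 (-1.59), C6orf203 (-1.53), SELM (-1.44), SNRNP27 (-1.40), NDUFC2 (-1.38), NDUFB5 (-1.24), RPF2 (-1.23), IGLL1 (-1.16), CYCS (-1.02), PECAM1 (-0.60), LIPA (-0.59) and NEAT1 (-0.54). The adjusted p of these 23 genes was 0.0379 to 0.0496, and each lost its call in 9 to 14 alternatives.

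The OTX change in U937 with folic acid also differed from that in IMS-M2 with folic acid, by the same kind of test, for 182 of 253 named genes, 91 higher and 91 lower, of which those whose difference the text gives follow. The log2 difference was 5.91 for COMMD3-BMI1, 5.15 for CCL1, 4.76 for IGLL1, 4.56 for SLC38A5, 4.30 for SELP, 4.20 for CD53, 4.13 for ANGPT1, 3.97 for C21orf90, 3.90 for ECM1, 2.59 for LGALS1 and 1.13 for CDKN1A. It was -3.74 for BCYRN1, -3.42 for MS4A3, -3.03 for FCER2, -2.80 for CYBB, -2.54 for TBXA2R, -2.51 for TARP and for MYC, -2.48 for PRTN3, -1.06 for HEXIM1 and -0.42 for BCL2. The calls of COMMD3-BMI1 (adjusted p = 0.0428), BCYRN1 (0.0293) and BCL2 (0.0415) were lost in 12, 9 and 8 alternatives. Adjusted p-values of the others were at most 0.00100, and no alternative ended their calls.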

How the results depend on the processing

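The count of 6204 called genes in U937 with folic acid stayed within 1.5 times under every alternative, from 4837 (filter at 5 FPKM) to 6616 (no filter), and from 5096 to 6252 without any 1 library. The count of 899 with a log2 change of at least 1 was 1369 with a pseudocount of 0.1 FPKM and 845 to 979 without any 1 library. The replicate number as a block gave 4981 and 890 calls. Deviations of same-numbered libraries correlated at -0.34, 0.13 and -0.24, so the numbers were not read as pairs. OTX replicate 3 correlated best with DMSO replicate 1 (0.50), and without both there were 6207 and 903 calls. The block ended the calls of HOXA9 (adjusted p = 0.0782) and HOXA10 (0.0843) among named genes. Leaving out the filter ended those of ACTB, GAPDH, RPS2, RPL39, HOXA9 and HOXA10. Of the 24 named calls in the difference from U937 without folic acid, 21 ended with a pseudocount of 0.1 FPKM, 17 with no filter, 4 with a filter at 5 FPKM and 1 (PRR19) after rescaling. In the difference from IMS-M2, no filter ended 3 (BCL2, BCYRN1 and COMMD3-BMI1), and the pseudocount and the block ended that of COMMD3-BMI1. The 12-library fit ended those of CDKN2A and HOXA10.

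The 225 differences from U937 without folic acid were 31 with a pseudocount of 0.1 FPKM, 128 with no filter and 541 with small RNA symbols left out, and 1 to 2704 without any 1 library. No paired analysis was possible because the columns of that culture carry other numbers than the labels. The 5714 differences from IMS-M2 were 4774 to 6292 without any 1 library and 5415 with the replicate block.

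Of 629 list medians under the alternatives, 41 moved by more than the spread between libraries and 17 changed sign. That of histone genes was 0.35 with no filter, where CDK inhibitors stood highest (0.73).

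Values that changed sign were all uncalled. Without any 1 library, the log2 change of RPL41 ran from -0.22 to 0.020 and that of RPS18 from -0.33 to 0.0061, and without both DMSO replicate 1 and OTX replicate 3 RPL41 was 0.0069. On the same terms CYBA ran from -0.39 to 0.12 and NCF4 from -0.066 to 0.075, and without both libraries above CYBA was 0.00050. The difference of BCL2 from U937 without folic acid ran from -0.017 to 0.14. Of the differences from IMS-M2, that of SERPINI1 ran from -0.015 to 0.19, and was -0.084 with a pseudocount of 0.1 FPKM. The cause was not tested. Unknown depth and 3 libraries a group limit the precision.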
